A study of Mus musculus with 12 samples.

Results

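Amino acids and neurotransmitters cross the cell membrane through a small number of carrier families, and the genes studied here are those of the SLC1, SLC3, SLC6, SLC7, SLC36, SLC38 and SLC43 families. They were chosen by name alone, as every gene whose symbol begins with one of these family names and a member number. The table held 62 such genes among 23284. One of them, Slc7a6os, matched by name only: it lies on the opposite strand beside Slc7a6 and is not a transporter, but it is kept in every count of these genes below. RNA of snap-frozen prostate was sequenced after poly-A pull-down. There were 6 libraries from mice with both copies of the targeted gene null (null prostate) and 6 from wild-type mice, at 4 months of age in both groups. Both genotypes were on a hybrid background of 129/SvImJ and C57Bl/6J. No label ties a library to its own animal. The p-values therefore rest on how far the libraries of a genotype lie apart, and this spread may be technical.

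Glutamate and neutral amino acids enter through SLC1 carriers, and cationic amino acids through the cationic branch of SLC7. Most of the other SLC7 proteins, grouped here as light chains, reach the membrane joined to an SLC3 heavy chain. Most of these exchange one amino acid for another. SLC6 carriers use the sodium gradient to take up creatine, taurine, glycine and monoamines, SLC38 carriers move glutamine and alanine, SLC36 carriers are proton-coupled, and SLC43 carriers move large neutral amino acids. Prostate epithelium secretes citrate, part of whose carbon comes from aspartate, and polyamines, which are made from the arginine product ornithine.

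Of the 62 genes, 41 stood high enough to be tested (6 or more libraries with a deposited log2 value of 4 or higher), and 26 of these differed between genotypes at a limma adjusted p under 0.05, which is 63.4% of those tested, against 53.1% of the 15096 genes tested. Of the 26, 13 rose and 13 fell in null prostate. Over all tested genes 28.0% were called higher and 25.1% lower. Differences of at least 2-fold were few, with 3 of the 41, and 7.01% of all tested genes were called at that size. They were Slc7a2, a cationic amino acid transporter, which rose 3.44-fold, Slc6a8, the creatine transporter, which rose 3.03-fold, and Slc6a20a, an imino acid transporter, which fell 2.73-fold. In 15 of the 41 genes the values of the genotypes did not overlap, as in 32.6% of all tested genes. The median difference was 0.08 on the log2 scale over the 41 genes and 0.01 over all tested genes.

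The libraries were not all equally apart. Null libraries 1, 2 and 5 formed one set and null libraries 3, 4 and 6 another, and null library 5 lay nearest to an equal mix of 1 and 2, and library 6 to one of 3 and 4. Wild-type libraries 1 to 3 and 4 to 6 likewise lay closer within their set than across sets, and wild-type libraries 3 and 5 lay nearest to the mix of their partners. The median distance to the mix was 0.0296 and 0.0293 for the null libraries and 0.0361 and 0.0340 for the wild-type libraries. The sets were chosen by this distance, so 1 library of each is nearest in any case. Over 3622 genes of high level the median distance between libraries was 0.0535 to 0.112 within a null set and 0.122 to 0.168 across the null sets, and 0.0389 to 0.0702 within a wild-type set and 0.103 to 0.129 across the wild-type sets. The 10 highest genes held 20.9% to 26.0% of the summed linear values of a library. A second fit therefore used the 4 set means, 2 against 2. It called 11 of the 41 genes, 6 higher and 5 lower, where 14.5% of all tested genes passed, 7.58% higher and 6.96% lower. Without null libraries 1, 2 and 5 limma called 52.0% of all tested genes, and without null libraries 3, 4 and 6 it called 50.5%. The adjusted p of this fit is given below as that over set means.

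Markers of the tissue and of its neighbours differed between the genotypes as well. Their counts stand beside 28.0% higher and 25.1% lower among all tested genes, and 7.58% and 6.96% over set means. Of 5 prostate secretory genes, all 5 fell, and their summed level on the log2 scale was 19.2 to 19.6 in null libraries and 20.7 to 20.9 in wild-type libraries. Sbp, the spermine-binding protein, stood at 3.13 to 5.06 in null libraries, near the floor of 3.501, the 95th percentile of the values of 1101 olfactory receptor genes. Of 6 tested seminal vesicle genes, 6 rose, with a summed level of 16.7 to 20.3 in null libraries and 6.39 to 11.6 in wild-type libraries, where Svs1 lay under that floor. Of 7 myeloid genes 7 fell, with sums of 10.5 to 10.9 in null and 11.3 to 12.2 in wild-type libraries, and of 6 B and T cell genes 4 fell, with sums of 6.76 to 7.25 in null and 7.63 to 8.90 in wild-type libraries. Of 4 tested basal genes 3 rose, with sums of 11.7 to 12.3 in null and 11.4 to 11.5 in wild-type libraries, and of 3 tested urothelial genes 2 rose, with sums of 13.2 to 14.4 in null and 12.5 to 12.8 in wild-type libraries. Of 4 luminal genes 1 rose and 3 fell, with sums of 15.1 to 15.4 in null and 15.4 to 15.7 in wild-type libraries. Of 4 smooth muscle genes limma called 0, with 0 also at an unadjusted p under 0.05. Of 4 endothelial genes 1 fell, and of 4 tested skeletal muscle genes 1 rose and 2 fell, with sums of 11.6 to 12.2 in null and 11.4 to 11.6 in wild-type libraries. Of 5 adipocyte genes 2 rose, with sums of 5.62 to 9.60 in null and 6.05 to 7.24 in wild-type libraries. Over set means fewer of these marker genes were called. Lower calls numbered 4 in the prostate secretory list, 1 in the myeloid list, 2 in the B and T cell list and 1 in the luminal list. Higher calls numbered 4 in the seminal vesicle list and 1 in the basal list, and limma called 0 higher in the luminal and skeletal muscle lists. The counts of the urothelial, adipocyte and endothelial lists and of lower skeletal muscle genes were the same in both fits. In the adipocyte list the genes differed, with Plin1 and Retn called over 12 libraries and Lep and Retn over set means. The part of these shifts in the transporter differences was not tested, and in whole tissue fewer cells of a type and less RNA per cell cannot be told apart.

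Of 5 tested genes of the cationic branch, 2 rose and 0 fell at an adjusted p under 0.05, and both were carriers of arginine, lysine and ornithine. Slc7a2 stood at 7.77, 8.43 and 8.99 (lowest, median and highest of 6) in null libraries and at 6.37, 6.57 and 6.78 in wild-type libraries. Every null library lay above every wild-type library, and within the null genotype libraries 3, 4 and 6 stood highest, with a set mean of 8.86 against 7.89 for libraries 1, 2 and 5. The difference was 1.78 ± 0.21 (SE) on the log2 scale (limma adjusted p = 8.46e-06, and 0.0272 over set means). It was 2.27 without null libraries 1, 2 and 5 and 1.30 without null libraries 3, 4 and 6.

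Slc7a1, the widely expressed cationic amino acid transporter, ranged over 12.03, 12.36 and 12.42 in null libraries and 11.52, 11.66 and 11.76 in wild-type libraries, again without overlap. It rose by 0.66 ± 0.07 (SE), with a limma adjusted p of 1.74e-06 and 0.0237 over set means. Slc7a4, a relative for which no transport of these amino acids is established, had means of 12.27 ± 0.30 in null and 12.03 ± 0.16 in wild-type libraries (SD, n = 6 each) and was not called (limma adjusted p = 0.107). Without null libraries 1, 2 and 5 its difference was 0.51 (limma adjusted p = 0.000437). Slc7a3, another carrier of this branch, averaged 4.90 ± 0.34 in null and 4.67 ± 0.19 in wild-type libraries (SD, n = 6 each) and was not called (limma adjusted p = 0.265).

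**Figure D1:**
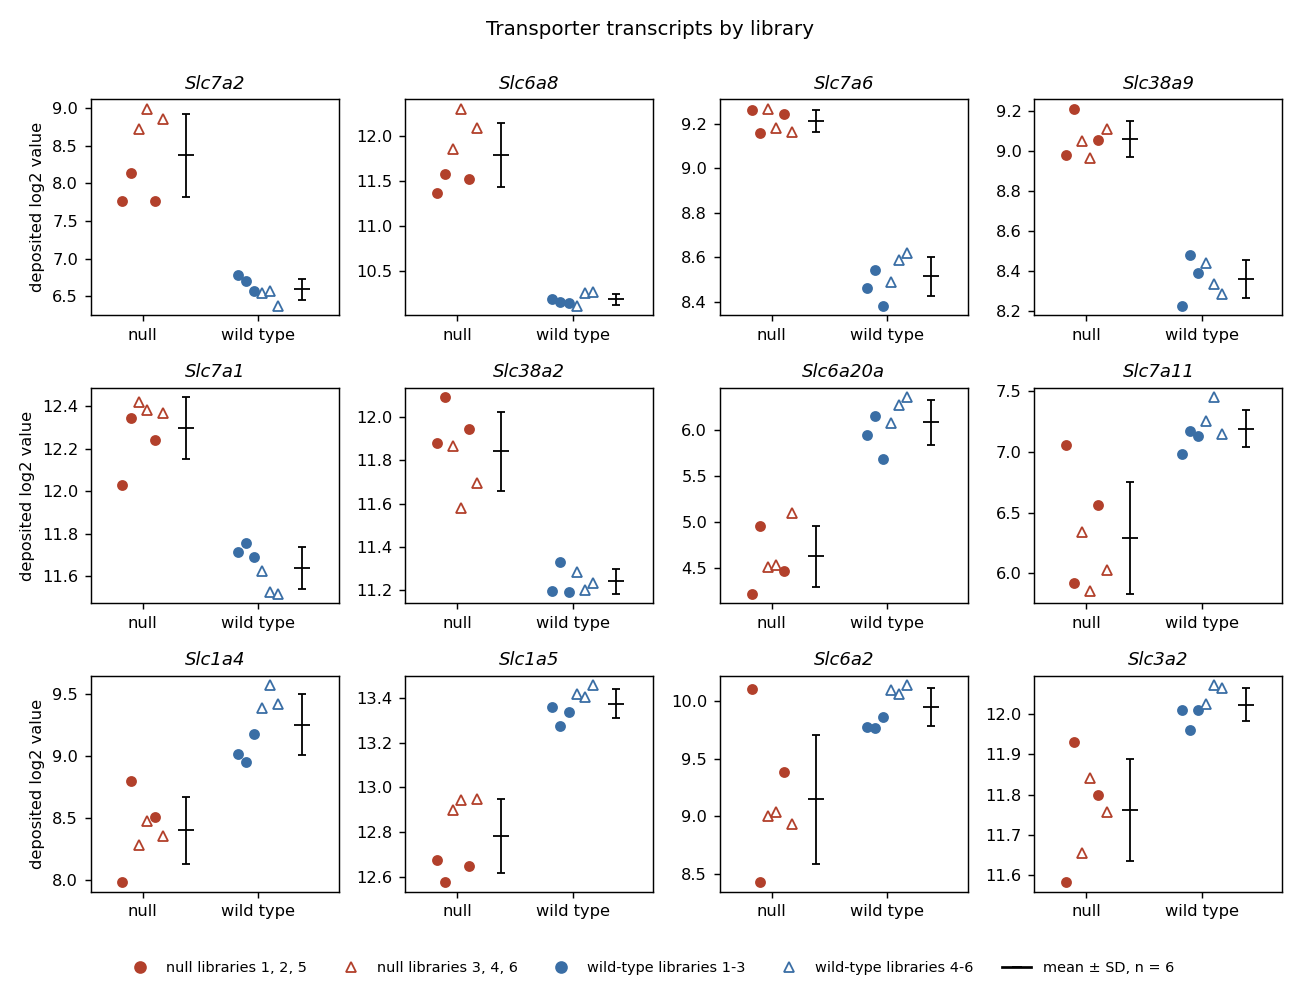
Deposited log2 values (vertical axis) of 12 transporter genes in each null and wild-type library, with the mean ± SD of each genotype (n = 6) beside the points and the sets of libraries as symbols. The 6 null values of Slc7a2, Slc6a8, Slc7a6, Slc38a9, Slc7a1 and Slc38a2 lie above the 6 wild-type values, those of Slc6a20a, Slc1a4, Slc1a5 and Slc3a2 lie below them, and those of Slc7a11 and Slc6a2 overlap them through null library 1.

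The heavy chain Slc3a2 (CD98) fell. Of 6 tested genes grouped as light chains 3 rose and 1 fell, and not every one of them need pair with Slc3a2. Slc3a2 stood at 11.58, 11.78 and 11.93 in null libraries and at 11.96, 12.02 and 12.07 in wild-type libraries. It fell by 0.26 ± 0.06 (SE; limma adjusted p = 0.00111), but not over set means (adjusted p = 0.129). Slc7a6, a light chain that exchanges cationic for neutral amino acids, rose by 0.70 ± 0.05 (SE), with 9.16, 9.21 and 9.26 in null libraries and 8.38, 8.52 and 8.62 in wild-type libraries. Its limma adjusted p was 4.62e-08, and 0.0115 over set means, and the null libraries lay close together in both sets. Slc7a6os, the neighbour on the opposite strand, fell by 0.19 (limma adjusted p = 0.00767, and 0.234 over set means), so the neighbours differed in opposite directions.

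Slc7a11 (xCT), the light chain that takes up cystine in exchange for glutamate, fell. It stood at 5.86, 6.18 and 7.06 in null libraries and at 6.98, 7.16 and 7.45 in wild-type libraries. Null library 1, at 7.06, was the single null library above the lowest wild-type value. The difference was -0.90 ± 0.18 (SE; limma adjusted p = 0.000702, and 0.0449 over set means), -0.68 without null libraries 3, 4 and 6 and -1.11 without null libraries 1, 2 and 5.

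Among the other genes of this group, Slc7a8 (LAT2), an exchanger of neutral amino acids, rose by 0.27 (limma adjusted p = 0.0122) and Slc7a12 by 0.54 (limma adjusted p = 0.0189). Neither was called over set means (adjusted p = 0.240 and 0.115). The call of Slc7a8 was lost after quantile normalization, with a difference of 0.19 and limma adjusted p = 0.112. Slc7a5 (LAT1), the carrier of large neutral amino acids, averaged 12.10 ± 0.21 in null and 12.15 ± 0.12 in wild-type libraries (SD, n = 6 each), a difference of -0.05 ± 0.09 (SE) that was not called (limma adjusted p = 0.695). The heavy chain Slc3a1, which pairs with Slc7a9 in kidney, stood at 3.92, 4.09 and 4.19 in null libraries and 3.91, 4.15 and 4.40 in wild-type libraries, barely above the floor, and was not called (limma adjusted p = 0.497). Slc7a9 lay under the floor of 3.501 in 12 of 12 libraries. Slc3a1 shares 26.5% of its exon bases with Prepl on the opposite strand, and without strand in the counting, which is not stated, their reads cannot be told apart.

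Of 4 tested SLC1 genes 1 rose and 2 fell, and those that fell were the neutral amino acid exchangers. Slc1a5 (ASCT2), a glutamine carrier, stood at 12.58, 12.79 and 12.95 in null libraries and 13.27, 13.38 and 13.46 in wild-type libraries, and fell by 0.59 ± 0.07 (SE; limma adjusted p = 6.46e-06, and 0.0476 over set means). Slc1a4 (ASCT1), an exchanger of serine and alanine, stood at 7.98, 8.41 and 8.80 in null libraries and 8.95, 9.28 and 9.57 in wild-type libraries, and fell by 0.85 ± 0.13 (SE; limma adjusted p = 0.000101, and 0.0225 over set means). Neither gene overlapped between genotypes.

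Of the glutamate and aspartate carriers of the same family, Slc1a3 (GLAST) stood at 5.92, 6.42 and 6.57 in null libraries and 5.46, 5.66 and 5.96 in wild-type libraries, which overlapped through null library 2. It rose by 0.61 ± 0.14 (SE; limma adjusted p = 0.00169), but not over set means (adjusted p = 0.106). Slc1a1 (EAAC1), the epithelial glutamate and aspartate carrier, was not called (limma adjusted p = 0.330), with 3.75, 4.53 and 5.81 in null libraries and 3.81, 4.27 and 4.64 in wild-type libraries. It shares 32% of its exon bases with 4430402I18Rik on the opposite strand. Slc1a2, Slc1a6 and Slc1a7 were too low to be tested.

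Slc7a11 and Slc1a4 are among the transporter genes known as targets of ATF4, the transcription factor of the amino acid stress response. No full list of its targets among the 62 genes was made, so this pair, which fell, does not give the direction of its targets. The 13 called genes that rose, Slc38a2 (0.60) and Slc7a1 (0.66) among them, were not sorted into targets and others. Nor were the other called genes that fell. The direction of the targets as a set was not tested. ATF4 binds the core TGATGNAA (N is any base). This core was searched on both strands of the RefSeq promoter windows of build GRCm38.p6, 250 bases before to 50 after a start site. It was present in 4.51% of the 27025 genes with a window and in 26.3% of the 19 stress response genes with one. Of the 62 genes, Slc7a6os included, 44 had a window, and 3 of these held the core: Slc7a11, Slc1a4 and Slc7a7. Among called genes with a window it was present in 2 of 10 that fell, Slc7a6os being 1 of the 10, and in 0 of 9 that rose. Called genes without a window were Slc7a2, Slc6a8, Slc6a6 and Slc7a12, which rose, and Slc1a5, Slc43a3 and Slc6a2, which fell. Sequence outside the windows was not searched, so a window without the core does not show that the gene lacks it. The promoters of the pair that fell are shown with those of Asns and Nupr1, the 2 of the 5 stress response genes holding the core that fell, with the core in capitals (TTGCATCA is its reverse complement):
Slc7a11, chr3:50443614-50443863, minus strand: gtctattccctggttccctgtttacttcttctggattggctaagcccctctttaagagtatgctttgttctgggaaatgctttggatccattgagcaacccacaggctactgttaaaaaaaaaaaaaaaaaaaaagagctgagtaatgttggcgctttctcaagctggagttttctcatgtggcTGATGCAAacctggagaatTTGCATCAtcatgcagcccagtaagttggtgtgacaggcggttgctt
Slc1a4, chr11:20332710-20332963, minus strand: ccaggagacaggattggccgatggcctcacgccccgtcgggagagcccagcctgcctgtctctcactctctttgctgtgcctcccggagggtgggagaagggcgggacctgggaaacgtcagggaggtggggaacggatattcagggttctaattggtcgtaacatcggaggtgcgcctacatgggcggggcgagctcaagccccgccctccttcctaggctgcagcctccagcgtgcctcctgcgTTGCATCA
Asns, chr6:7693210-7693459, minus strand: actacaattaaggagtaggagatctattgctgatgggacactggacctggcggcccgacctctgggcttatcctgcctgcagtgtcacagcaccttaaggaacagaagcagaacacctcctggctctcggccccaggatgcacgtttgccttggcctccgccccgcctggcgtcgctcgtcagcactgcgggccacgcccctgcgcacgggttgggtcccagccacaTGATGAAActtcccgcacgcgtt
Nupr1, chr7:126625471-126625720, minus strand: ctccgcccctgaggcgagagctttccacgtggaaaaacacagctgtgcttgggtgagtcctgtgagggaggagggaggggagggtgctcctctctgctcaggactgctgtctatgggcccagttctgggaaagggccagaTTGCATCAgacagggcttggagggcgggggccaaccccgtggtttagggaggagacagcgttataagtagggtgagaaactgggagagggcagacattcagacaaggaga

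The Slc7a11 promoter carried the core in both orientations, beginning 66 and 47 bases before the start site. In Slc1a4 the core lay across the start site, beginning 4 bases before it, and in Asns and Nupr1 it began 23 and 110 bases before the start. A match of letters is a description of the sequence and says nothing of binding in these samples. The core was not limited to genes that fell. It also stood in the windows of Slc7a7, which was not called, and of the stress response genes Vldlr, Chac1 and Trib3. Vldlr, a lipoprotein receptor gene, rose by 0.45 (limma adjusted p = 0.00166, and 0.0987 over set means). Chac1 (-0.24) and Trib3 (-0.36) were not called (limma adjusted p = 0.654 and 0.390). In both genes null libraries 2 and 5 stood above the wild-type range and null libraries 1, 3, 4 and 6 below it. Null libraries 2 and 5 had 9.87 and 9.34 in Chac1 (wild type 8.26 to 8.75) and 8.34 and 7.59 in Trib3 (wild type 6.86 to 7.48).

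Genes of the stress response were called in both directions, as were genes of the whole table. Of 21 tested genes of the ATF4 list, 5 rose and 8 fell, beside 28.0% higher and 25.1% lower among all tested genes. Over set means 1 rose and 4 fell, beside 7.58% and 6.96% of all tested genes. The median difference of the list was -0.20. Asns, asparagine synthetase, stood at 10.92, 11.10 and 11.21 in null libraries and 12.16, 12.29 and 12.48 in wild-type libraries, and fell by 1.22 ± 0.07 (SE; limma adjusted p = 7.68e-09, and 0.00577 over set means). Nupr1, a stress-induced nuclear protein, fell by 5.11 ± 0.25 (SE), with 6.70, 7.15 and 7.84 in null libraries and 11.88, 12.31 and 12.82 in wild-type libraries (limma adjusted p values of 1.47e-08 over all libraries and 0.00636 over set means). Aldh1l2, a mitochondrial folate enzyme, fell by 1.22 (limma adjusted p = 8.05e-07), while Cth, which makes cysteine from cystathionine, rose by 0.86 (limma adjusted p = 5.37e-08), and both passed over set means (adjusted p = 0.0150 and 0.00958). Atf4 itself and Ddit3 were not called (limma adjusted p = 0.912 and 0.445). Ddit3 stood at 9.07, 11.27 and 10.62 in null libraries 1, 2 and 5, above the wild-type range of 8.44 to 8.72. In null libraries 3, 4 and 6 it stood below that range, at 7.97, 7.98 and 8.11.

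Enzymes that make or use the carried amino acids were counted in 3 lists, beside 28.0% higher and 25.1% lower among all tested genes. Of 14 glutamate, glutamine and aspartate genes, 2 rose and 5 fell, with a median of -0.19, and over set means limma called 0 higher and 2 lower. Pycr1 (-1.58) and Aldh18a1 (-0.60), which make proline from glutamate, fell (limma adjusted p = 2.76e-08 and 2.14e-05), also over set means (adjusted p = 0.00570 and 0.0188). Gls2, which converts glutamine to glutamate, fell by 1.53 (limma adjusted p = 0.000206), but not over set means (adjusted p = 0.0617). Of 12 tested glycine, branched-chain and arginine genes, limma called 0 higher and 8 lower, with a median of -0.36, and at an unadjusted p under 0.05 limma counted 10, of which 0 were higher. Over set means it called 0 higher and 2 lower in that list. Of 8 tested genes of GABA, taurine and creatine metabolism, 1 rose and 1 fell over 12 libraries. Over set means limma called 0 of them, and 4 passed at an unadjusted p under 0.05 over 12 libraries.

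Arg1, the arginase that yields ornithine, stood at 3.82, 4.44 and 4.69 in null libraries and 6.45, 6.59 and 6.90 in wild-type libraries and fell by 2.30 (limma adjusted p = 1.48e-08, and 0.00477 over set means), a size limited by the floor. Asl, argininosuccinate lyase, fell by 0.72 (limma adjusted p = 7.20e-08, and 0.0134 over set means). Bckdhb (-0.43) and Bckdha (-0.28), subunits of branched-chain ketoacid dehydrogenase, fell (limma adjusted p = 6.62e-05 and 0.00233) but not over set means (adjusted p = 0.0509 and 0.146).

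The creatine transporter gene rose in every null library. Slc6a8 stood at 11.37, 11.72 and 12.30 in null libraries and at 10.12, 10.17 and 10.27 in wild-type libraries, with null libraries 3, 4 and 6 (set mean 12.08) above null libraries 1, 2 and 5 (set mean 11.49). The difference was 1.601 ± 0.13 (SE; limma adjusted p = 4.53e-07, and 0.0104 over set means). Slc6a6, the taurine transporter, stood at 9.80, 10.07 and 10.37 in null libraries and 9.56, 9.76 and 9.83 in wild-type libraries. It rose by 0.35 (limma adjusted p = 0.00949), but not over set means (adjusted p = 0.218), and without null libraries 3, 4 and 6 the difference was 0.13 (limma adjusted p = 0.148).

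The called genes of creatine and taurine synthesis differed in opposite directions. Gamt, the enzyme of the last step of creatine synthesis, fell by 0.55 (limma adjusted p = 0.000323, and 0.0926 over set means). Cdo1, cysteine dioxygenase of the taurine pathway, stood at 8.47, 10.94 and 13.37 in null libraries and 7.12, 7.45 and 7.69 in wild-type libraries, a difference of 3.55 with limma adjusted p = 0.00536 but 0.272 over set means. The GABA and betaine transporters Slc6a11, Slc6a12 and Slc6a13 were too low to be tested, with values of 2.27 to 4.32 in null and 2.45 to 4.19 in wild-type libraries.

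The glycine transporter gene Slc6a9 (GlyT1) stood at 9.64, 9.80 and 9.97 in null libraries and 9.18, 9.34 and 9.57 in wild-type libraries. It rose by 0.42 ± 0.08 (SE; limma adjusted p = 0.000705), but not over set means (adjusted p = 0.106), and 38.8% of its exon bases are shared with Ccdc24 on the opposite strand. The glycine and proline transporters Slc6a5 and Slc6a7 were too low to be tested.

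Slc6a20a fell furthest of the transporter genes. It stood at 4.22, 4.52 and 5.10 in null libraries and at 5.69, 6.11 and 6.35 in wild-type libraries, and the groups did not overlap. The difference was -1.45 ± 0.16 (SE; limma adjusted p = 3.87e-06, and 0.0127 over set means). Its close paralog Slc6a20b ranged from 2.64 to 3.83 in null and from 3.48 to 4.04 in wild-type libraries and was too low to be tested, and the sources do not give how reads were divided between the paralogs. Slc6a20a also shares 13.8% of its exon bases with the antisense gene Gm17120.

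**Figure D2:**
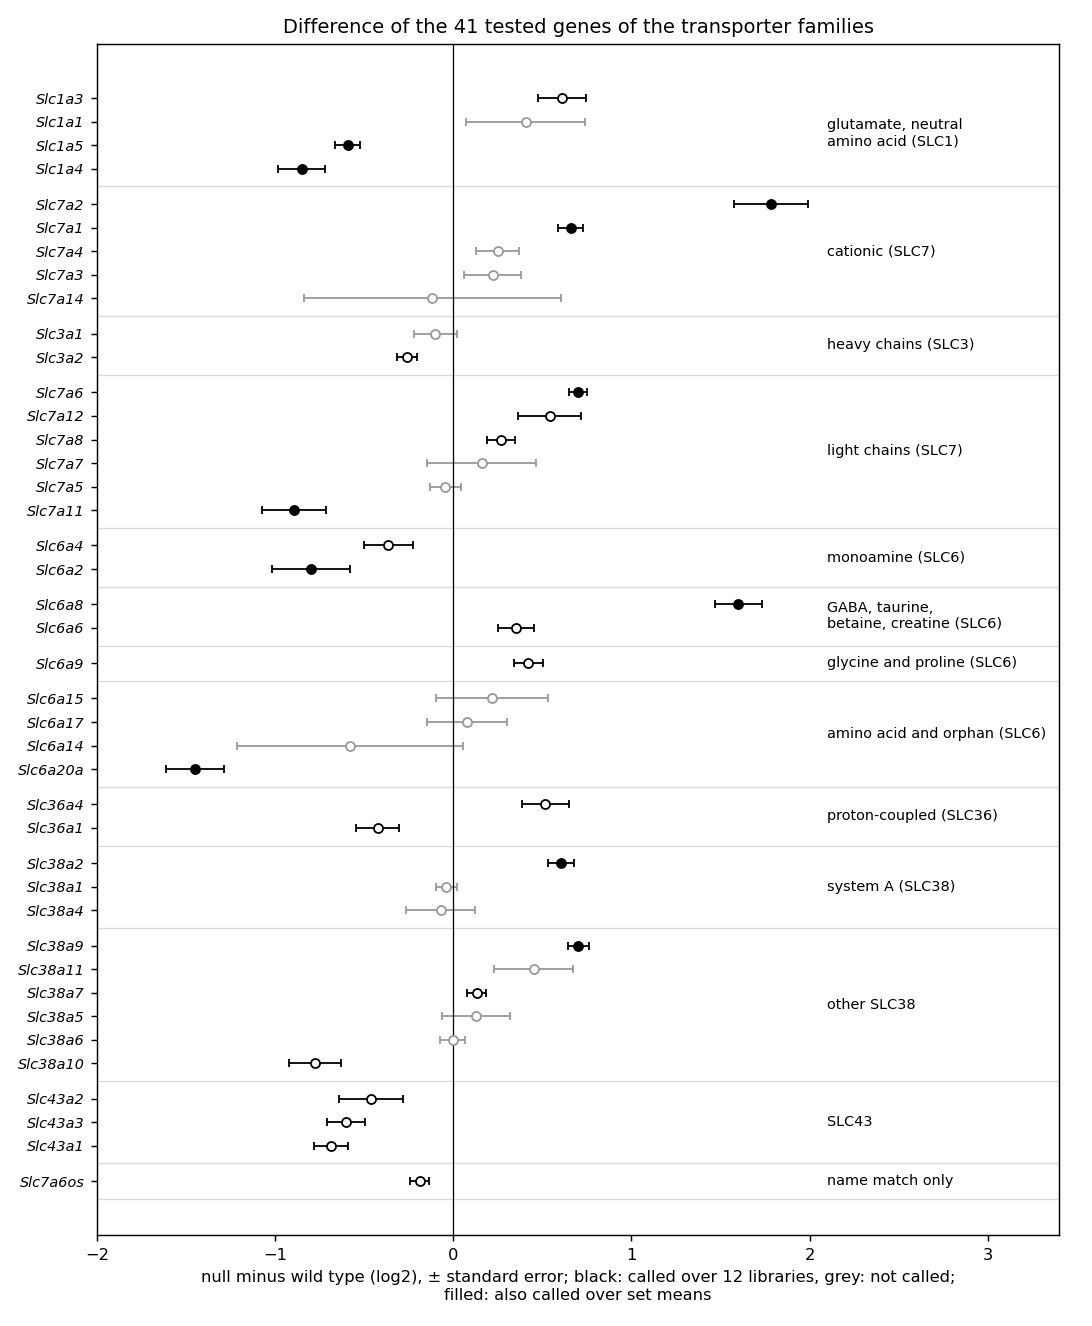
Difference between null and wild-type libraries on the log2 scale (horizontal axis, ± SE) for the 41 tested genes, grouped by transporter role. Black points passed the limma test over 12 libraries and filled points also passed over set means. Slc7a2 (1.78) and Slc6a8 (1.601) lie farthest to the right and Slc6a20a (-1.45) farthest to the left.

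The 2 tested monoamine transporters of the SLC6 family were called lower over 12 libraries. Slc6a2, the noradrenaline transporter, stood at 8.43, 9.02 and 10.11 in null libraries and 9.77, 9.96 and 10.14 in wild-type libraries. Null library 1 reached the wild-type level and null libraries 2 to 6 lay below it. The difference was -0.80 ± 0.22 (SE; limma adjusted p = 0.00834, and 0.0275 over set means), and without null libraries 3, 4 and 6 it was -0.64 with limma adjusted p = 0.119. Leaving out wild-type libraries 4 to 6 gave -0.65 (limma adjusted p = 0.109).

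Slc6a4, the serotonin transporter, fell by 0.36 (limma adjusted p = 0.0348), with 5.97, 6.28 and 6.74 in null libraries and 6.63, 6.67 and 6.90 in wild-type libraries. The fit over set means did not call it (adjusted p = 0.323), and it had a difference of -0.09 without null libraries 3, 4 and 6 (limma adjusted p = 0.515). After quantile normalization its limma adjusted p was 0.0800. Of 8 nerve genes limma called 0 over 12 libraries and 0 over set means, with 0 at an unadjusted p under 0.05 over 12 libraries, and their summed levels were 7.31 to 11.1 in null and 7.74 to 10.4 in wild-type libraries. The dopamine transporter Slc6a3 was too low to be tested.

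The system A carrier Slc38a2 (SNAT2), which takes up small neutral amino acids, rose without overlap. It stood at 11.58, 11.87 and 12.09 in null libraries and 11.19, 11.22 and 11.33 in wild-type libraries, a rise of 0.60 ± 0.07 (SE; limma adjusted p = 7.42e-06, and 0.0288 over set means). Its relative Slc38a1 (SNAT1) averaged 11.81 ± 0.15 in null and 11.85 ± 0.04 in wild-type libraries (SD, n = 6 each) and was not called (limma adjusted p = 0.609), but was lower after quantile normalization (-0.16, limma adjusted p = 0.00997) and without null libraries 3, 4 and 6 (-0.17, limma adjusted p = 0.00817). Slc38a4, also of system A, averaged 4.22 ± 0.35 in null and 4.29 ± 0.33 in wild-type libraries (SD, n = 6 each; limma adjusted p = 0.776).

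Slc38a9, the lysosomal carrier that reports arginine to the kinase complex mTORC1, rose by 0.70 ± 0.06 (SE). It stood at 8.96, 9.05 and 9.21 in null libraries and 8.23, 8.36 and 8.48 in wild-type libraries (limma adjusted p values of 2.15e-07 over all libraries and 0.0111 over set means), with null set means of 9.08 and 9.04. Slc38a10 stood at 12.35, 12.68 and 13.24 in null libraries and 13.33, 13.49 and 13.67 in wild-type libraries and fell by 0.77 ± 0.15 (SE; limma adjusted p = 0.000593), but not over set means (adjusted p = 0.0879). The difference was -1.10 without null libraries 3, 4 and 6 and -0.44 without null libraries 1, 2 and 5. Slc38a7, a lysosomal glutamine carrier, rose by 0.13 (limma adjusted p = 0.0462), a call that was lost over set means (adjusted p = 0.373) and after quantile normalization (limma adjusted p = 0.177).

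Genes of amino acid sensing by mTORC1 were called in both directions, as were genes of the whole table. Of 20 tested genes 7 rose and 5 fell, beside 28.0% higher and 25.1% lower among all tested genes. Over set means 3 rose and 1 fell, beside 7.58% and 6.96% of all tested genes. The median difference of the list was 0.03. Rragd, a GTPase that recruits mTORC1 to the lysosome, fell by 0.83 (limma adjusted p = 1.55e-07, and 0.0136 over set means). Tsc1 (0.39) and Tsc2 (0.50), the subunits of the complex that restrains mTORC1, rose (limma adjusted p = 5.53e-06 and 1.46e-05, and 0.0473 and 0.0512 over set means). Flcn, which acts on the Rag GTPases, fell by 0.36 (limma adjusted p = 1.89e-05, and 0.0605 over set means).

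The 3 members of SLC43 were called lower. Slc43a1 (LAT3), a carrier of branched-chain amino acids first described in human prostate cancer, stood at 6.18, 6.40 and 6.67 in null libraries and 7.01, 7.11 and 7.17 in wild-type libraries. It fell by 0.69 ± 0.10 (SE; limma adjusted p = 3.47e-05, and 0.0632 over set means). Slc43a3, which carries purine nucleobases in human cells, stood at 7.70, 7.96 and 8.35 in null libraries and 8.51, 8.58 and 8.82 in wild-type libraries and fell by 0.61 (limma adjusted p = 0.000257, and 0.0701 over set means), also without overlap. Slc43a2 (LAT4) fell by 0.46 (limma adjusted p = 0.0467, and 0.154 over set means), but null library 1, at 9.98, stood above the highest wild-type value of 9.75, and the call was lost in 10 of 12 fits that left out 1 library (limma adjusted p = 0.0607 to 0.100). Of the proton-coupled carriers, Slc36a4 (PAT4) rose by 0.52 (limma adjusted p = 0.00449) and Slc36a1 (PAT1) fell by 0.43 (limma adjusted p = 0.00856), neither over set means (adjusted p = 0.121 and 0.206).

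Some transporter genes differed more between sets of libraries of a genotype than between genotypes. The null sets lay at least 2-fold apart in 4 of the 41 genes, Slc6a14, Slc7a14, Slc7a7 and Slc1a1, and in 2.09% of all tested genes. The wild-type sets lay that far apart in 2 of the 41 genes, Slc6a15 and Slc7a14, and in 2.15% of all tested genes. Slc6a14, a carrier of neutral and cationic amino acids, stood at 7.56, 6.94 and 7.26 in null libraries 1, 2 and 5, above the wild-type range of 6.06 to 6.56, and at 4.52, 4.55 and 3.85 in null libraries 3, 4 and 6, below it. Its difference over 12 libraries was -0.58 ± 0.63 (SE; limma adjusted p = 0.468), with 0.89 without null libraries 3, 4 and 6 (limma adjusted p = 0.000778) and -2.05 without null libraries 1, 2 and 5 (limma adjusted p = 1.77e-06). The seminal vesicle gene Svs2 stood at 17.86, 19.36 and 18.86 in null libraries 1, 2 and 5 and at 11.62, 12.56 and 12.13 in null libraries 3, 4 and 6, and Cdo1 likewise at 12.37, 13.37 and 12.92 and at 8.47, 9.52 and 9.21. The part of seminal vesicle transcripts in the split of Slc6a14 was not tested.

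Slc7a14, a relative of the cationic carriers, had another pattern, with 6.75, 3.60 and 5.87 in null libraries 1, 2 and 5 and 4.01, 2.50 and 3.58 in null libraries 3, 4 and 6. In wild-type libraries it stood at 5.45, 5.54 and 5.30 in libraries 1 to 3 and at 3.32, 3.98 and 3.45 in libraries 4 to 6. Th, tyrosine hydroxylase of noradrenaline neurons, stood at 7.75, 3.18, 5.36, 2.69, 6.55 and 4.57 in null libraries 1 to 6 and at 5.73, 5.61, 5.40, 3.57, 4.20 and 3.56 in wild-type libraries 1 to 6. Both genes were thus highest in null library 1 and lowest in null library 4, and higher in wild-type libraries 1 to 3 than in 4 to 6. Slc6a2 shared this order in part. It was also highest in null library 1 (10.11), but lowest in null library 2 (8.43). It was higher in wild-type libraries 4 to 6 (set mean 10.10) than in libraries 1 to 3 (set mean 9.80).

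**Figure D3:**
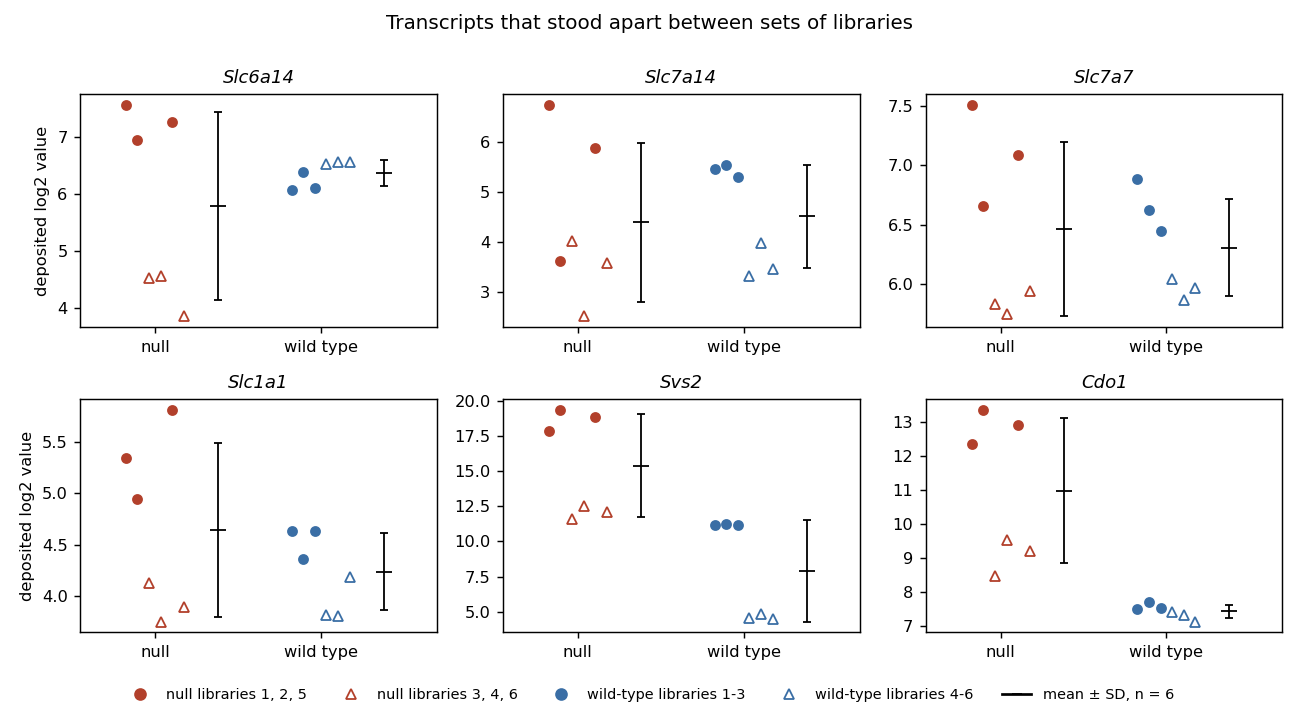
Deposited log2 values (vertical axis) of 4 transporter genes, the seminal vesicle gene Svs2 and the cysteine dioxygenase gene Cdo1 in each null and wild-type library, with the mean ± SD of each genotype (n = 6). Circles and triangles mark the sets of alike libraries. Null libraries 1, 2 and 5 lie above null libraries 3, 4 and 6 in each panel but that of Slc7a14, where null library 2 (3.60) lies below null library 3 (4.01).

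Slc7a7, a light chain with cationic substrates, stood at 7.51, 6.66 and 7.09 in null libraries 1, 2 and 5, at 5.84, 5.75 and 5.95 in null libraries 3, 4 and 6, and at 5.87 to 6.89 in wild-type libraries. The 12 libraries gave no call (limma adjusted p = 0.691), and it was higher without null libraries 3, 4 and 6 (0.78, limma adjusted p = 0.0232). Slc1a1 was likewise higher without them (1.13, limma adjusted p = 0.00275), as were Slc38a11 (0.78, limma adjusted p = 0.0199) and Slc7a3 (0.48, limma adjusted p = 0.0275). Slc6a15, Slc6a17, Slc38a5 and Slc38a6, carriers of neutral amino acids or of unsettled substrates, were not called, with differences of 0.22, 0.08, 0.13 and -0.0042.

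The 21 genes not tested lay at or near the floor, with values between 1.91 and 4.57. The mean of 15 of them was under the floor of 3.501, and Slc7a9, Slc7a13 and Slc38a8 lay under it in every library. Beside those named above they included Slc7a10, Slc7a15, Slc6a18, Slc6a19, Slc36a2, Slc36a3 and Slc38a3.

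Transporters of other families were also counted. Of 16 tested carriers of amino acids, peptides or transmitters from other families, 2 rose and 3 fell, and over set means limma called 0. At an unadjusted p under 0.05 over 12 libraries 6 of them passed. Slc17a9 (-0.47), the vesicular nucleotide carrier, Slc25a13 (-0.49), the mitochondrial aspartate and glutamate carrier citrin, and Slc15a3 (-0.89), a lysosomal peptide and histidine carrier, fell (limma adjusted p = 4.32e-05, 0.000234 and 0.00203), and Slc25a22, a mitochondrial glutamate carrier, rose by 0.15 (limma adjusted p = 0.0203). Their adjusted p over set means was 0.0595, 0.0627, 0.0978 and 0.348.

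Of 7 tested partners and regulators, 4 rose and 2 fell, beside 28.0% higher and 25.1% lower among all tested genes. Over set means 2 rose and 1 fell, beside 7.58% and 6.96%. Nedd4l, a ubiquitin ligase that removes carriers from the membrane, stood at 11.23, 11.34 and 11.43 in null libraries and 8.90, 9.01 and 9.12 in wild-type libraries, a rise of 2.32 ± 0.05 (SE; limma adjusted p = 1.91e-13, and 0.000540 over set means). Sgk1, a kinase that opposes this ligase, rose by 1.78 ± 0.06 (SE; limma adjusted p = 1.34e-11, and 0.00254 over set means). Arl6ip5, which in rat binds and inhibits the Slc1a1 protein, fell by 0.63 (limma adjusted p = 2.23e-09, and 0.0111 over set means), and Ppp3ca, a calcineurin subunit, fell by 0.19 (limma adjusted p = 0.0197, and 0.332 over set means).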

How the data were processed

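The authors deposited 1 table of log2 expression values from 1.07 to 21.6 for 23284 genes, with no read totals, so library depth is unknown. No source used here gives the transformation behind them. Per the labels' protocols, poly-A RNA was made into Illumina TruSeq libraries. The build mm9 and the tools TopHat2 2.0.4, CASAVA 1.8.2, DESeq and Cufflinks 2.0.2 stand, without roles, in the submitters' processing notes. Values are not scaled to gene length, as far as stated, so levels were not compared between genes.

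Genotypes were compared with limma 3.58.1 in R 4.3.3 (mean-variance trend, robust moderation, Benjamini-Hochberg over the 15096 genes at 4 or higher in 6 or more libraries, threshold 0.05). The limma fit was tested on simulated data with 200 changed genes. The simulated libraries were drawn independently, so they do not check the fit for libraries that form sets. Sets are the split of each genotype into triplets in which 1 library of each lay closest to the average of its partners. Genes of mean 10 or higher outside the transporter families were used. By rule, values are given in full for genes called and at least 2-fold apart and for the heavy chains, other called genes are named with their difference, and the rest by means or ranges. Further ranges were added after the values were seen. From each other list up to 4 called genes of smallest adjusted p are named. Th, Sbp, Lep, Atf4, Ddit3 and the Svs genes were singled out after their values were seen. Genes and lists were chosen with earlier results of these data known. Promoter sequences are from RefSeq, build GRCm38.p6, which is not the build named for the values, and exon overlaps are from GENCODE. Of the 41 tested genes 8 shared exon bases with a gene on the opposite strand. Besides those given above they were Slc7a7 (8.82%, with Oxa1l), Slc43a2 (7.62%), Slc38a10 (6.77%) and Slc7a2 (1.87%). The targeted gene and some other genes are not reported by name or level here, though the other genes count in the totals. Alternatives were 2 other scalings, limma without trend, no filter, a filter at 5, set means, each set and each library left out and, added after seeing the data, null libraries 5 and 6 left out. Wild-type libraries 3 and 5, likewise nearest to the mix of their partners, were not left out together.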

Additional observations from a re-analysis of the deposited data

Results flagged for a closer look

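In 6 of 134 groups of 6 libraries (the null and the wild-type values of 41 transporter genes and 26 genes of other lists), 1 library stood far from the rest. Chance alone flags about 1 in 20 groups. Slc38a7 stood at 9.79 in null library 4, against 9.52 to 9.6041 in the other null libraries, and at 9.35 in wild-type library 2, against 9.45 to 9.51 in the others. Slc6a4 stood at 6.90 in wild-type library 5, against 6.63 to 6.70. Slc7a6os stood at 9.06 in null library 2, against 8.79 to 8.86. Cth stood at 8.81 in null library 6, against 8.53 to 8.59, and Tsc1 at 9.51 in wild-type library 2, against 9.58 to 9.62. Slc38a7 and Slc6a4 were also genes whose call was lost when single libraries were left out.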

How the results depend on the processing

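No paired analysis was possible because the labels number no libraries across genotypes. Over set means 11 of the 41 tested genes (Slc7a6os included) were called, 6 higher and 5 lower, against 26, 13 and 13 over 12 libraries, and 2195 genes of the whole table against 8013. These 11 were all among the 26. The number at least 2-fold apart, 3 over 12 libraries, was 5 without null libraries 1, 2 and 5 (with Slc7a11 and Slc6a14 besides) and 5 without null libraries 3, 4 and 6 (with Slc1a1 and Slc38a10 besides). Leaving out each library in turn gave 23 to 26 called transporter genes, 12 to 13 higher, 11 to 13 lower and 3 to 4 at least 2-fold apart, with 7586 to 7887 genes called in all. Of the 26, 23 remained called without any 1 library, and Slc38a7, Slc43a2 and Slc6a4 did not. Slc6a14 turned from lower to higher without null libraries 3, 4 and 6 (0.89). The other scalings moved the median of all tested genes by -0.0099 (quantile normalization) and -0.030 (upper quartile) and changed the call of 5 transporter genes, Slc38a1, Slc38a11, Slc38a7, Slc6a4 and Slc7a8. Slc38a7 and Slc43a2 also lost their call without the trend and without the filter, and Slc38a7, Slc43a2 and Slc7a12 without null libraries 5 and 6. Between 2 and 8 genes lost it when a set was left out. The cause of these changes was not tested. With the depth unknown, differences of genes near the floor of 3.501 are limited by it.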
